A study of Mus musculus with 28 samples.

Results

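Among the 40303 features counted in splenic B cell subsets, 200 were chosen by their level in wild-type (WT) mice: B cells of 2 subsets held them at similar levels while plasma cells held little of them. CPM values (each count scaled to a common library total) were averaged over the WT libraries of each subset. Features with a mean of 10 to 4000 CPM in both B cell subsets and a ratio between these subsets of 0.5 to 2 were kept, which left 7592 after 1 further feature named in the rule was set aside. They were ranked by a score, the lower of the B cell means plus 1 CPM over the plasma cell mean plus 1 CPM, and the first 200 are called members here. Because WT levels chose the members, their WT levels by subset are given as a description with no test. The comparisons among the 12 libraries with a deletion are independent of the choice. The 4 comparisons of a deletion group with WT are not, since the same WT libraries chose the members.

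The study sorted cells from spleens of female mice and sequenced their RNA in bulk, to ask what loss of Xist changes in B cells when lupus-like disease arises. Xist is the noncoding RNA that silences the inactive X chromosome. The WT mice had an intact Xist gene and low dsDNA, a label for a low level of autoantibodies to double-stranded DNA. The Xist cKO mice had Xist deleted conditionally in their B cells and showed either low dsDNA without disease (cKO low) or high dsDNA with lupus-like disease (cKO high). Groups were matched for age, but the sources used here do not give the age, the strain or the driver of the deletion. CD23+ B cells, a phenotype of follicular B cells, gave 6 WT, 3 cKO low and 3 cKO high libraries. CD11c+ age-associated B cells (ABC) gave 4 WT and 3 cKO high libraries. Long-lived plasma cells (LLPC), sorted as B220- CD138+, gave 6 WT and 3 cKO high libraries. In ABC and LLPC the deletion and the disease label therefore cannot be told apart.

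A B cell that becomes a plasma cell shuts down much of the program that defines B cells, including antigen receptor signalling, antigen presentation and the transcription factors that hold B cell identity, and it turns its RNA over to antibody secretion. Blimp-1 is the repressor best known for this switch, and Pax5 is the B cell identity factor that it silences. Follicular B cells and age-associated B cells differ in activation history, but both keep the B cell program. A feature that both hold and plasma cells lack is the pattern by which such genes are recognised, although these data do not tell which genes the members are. The tables list feature IDs with the prefix MGP_BALBcJ_G and no names, and 0 IDs were found in the mouse annotation used here. No member was given a name, a position or a sequence, the sorted cell types were not checked against marker genes, and most members are called by their rank in the score.

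Library totals ran from 2133489 counts in ABC cKO high replicate 2 to 23866710 in CD23+ WT replicate 4. Few features dominated the plasma cell RNA. The top 10 held 27.4 to 50.2% of counts in WT and 47.8 to 51.3% in cKO high LLPC, against 12.6 to 18.4% in all CD23+ and ABC libraries. A CPM value in LLPC is lowered by this concentration, which is why the level of other features is given beside that of the members. In bulk RNA, fewer cells that hold a feature and less RNA of it per cell cannot be told apart.

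The rule set the WT pattern. WT members had a median group mean of 185.0 CPM in CD23+ cells (quartiles 83.8 and 367.3), 157.6 in ABC and 10.3 in LLPC. Scores ran from 90.2 to 6.9997 with a median of 11.3, against a median of 1.51 over the 7592 features ranked. The limit fell in a continuous series: the last member and the next feature outside, with a score of 6.9977, were nearly equal. The last member was at 257.4 CPM in CD23+ cells, 230.1 in ABC and 32.0 in LLPC, and the next feature at 61.9, 56.9 and 7.28 CPM. Another 36 features had a score and a level as high but a ratio outside 0.5 to 2, 26 of them higher in CD23+ cells and 10 higher in ABC, and 1 was left out for exceeding 4000 CPM. Members were a larger share of the abundant features than of the scarce ones. They made up 12 of the 48 ranked features at 1000 CPM or more in WT CD23+ cells, and 17 of the 2401 at 10 to 30 CPM. The 1 CPM added to both means lowers the score of a feature scarce in plasma cells more when its B cell level is low. The rule itself therefore favours abundant features, and these shares describe the choice only. How much of the contrast comes from the added 1 CPM was not tested.

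**Figure D1:**
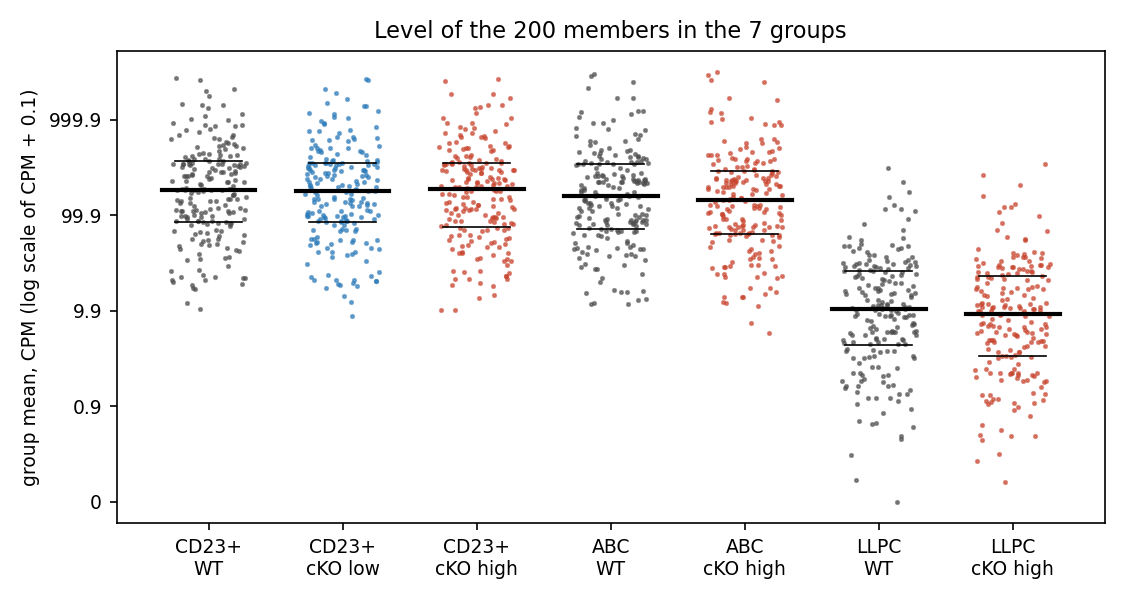
Group mean in CPM, on a log scale of CPM plus 0.1, for each of the 200 members (points) in the 7 groups, with the median as a thick line and the quartiles as thin lines. The medians lie between 144.2 and 188.0 CPM in the 5 CD23+ and ABC groups and at 10.3 and 9.08 CPM in the LLPC groups.

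The pattern was present in the cKO high animals, whose libraries had no part in the rule. All 200 members were lower in cKO high LLPC than in cKO high CD23+ cells by edgeR's quasi-likelihood test (adjusted p under 0.05 over 12359 features, largest member value 0.00973), where 29.8% of all features tested were called lower. The median log2 fold change was -3.25, with quartiles of -3.97 and -2.64, against a median of 0.01 over all features. A fall of at least 8-fold was fitted for 121 members and for 2.98% of all features. Against cKO high ABC, all 200 members were again lower (24.9% of all features, median log2 fold change -2.96 against -0.03 over all features, largest adjusted p 0.00795), and 99 members were fitted at least 8-fold lower, against 2.83% of all features. All members passed the filter on low counts in this fit, but 18 of them did not pass it among the LLPC libraries alone and so entered through their B cell levels. Both comparisons share the LLPC libraries.

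No member overlapped between these subsets. The lowest CD23+ cKO high library lay above the highest LLPC cKO high library for 200 of 200 members, by at least 2.89 times and by a median of 12.8 times, where 57.0% of 15169 features (those whose counts summed to 10 or more) showed such a gap in CPM. For ABC the count was also 200, with 60.2% of 14984 features, and the smallest gap was 2.92 times. Libraries were matched within animals by a number that recurs across subsets in the names of the deposited tables, an inference that no label states. Each of the 9 animals so matched for CD23+ and LLPC libraries had all 200 members lower in its own LLPC library. In the 6 WT animals among them this follows largely from the rule, since the same libraries chose the members. Only the cKO high animals are independent of the choice, and the share of all features lower within an animal was not computed. In the cKO high animals the median member in LLPC stood at 6.25%, 5.99% and 4.22% of its level in the CD23+ cells of the same animal, and at 7.37%, 6.999% and 4.96% of its level in ABC. In the 6 WT animals the value against CD23+ cells was 3.92 to 7.72%.

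Taken over group means, the median member remained in cKO high LLPC at 5.45% of its cKO high CD23+ level in CPM, while the median over all 8134 features of at least 10 CPM in those CD23+ cells was 47.3%. On library sizes scaled by TMM, which offsets the concentration of plasma cell RNA, the median member remained at 9.51%. The median over all features was not computed on that scale, so 9.51% cannot be set against 47.3%. Members differed widely in how much was left. Of the 200, 8 were under 1%, 20 at 1 to 2%, 60 at 2 to 5%, 89 at 5 to 10% and 23 at 10% or more, with the highest at 17.2%. The amount left varied little with abundance (Spearman's rho 0.11 across members): the median was 4.69% for the 17 members at 10 to 30 CPM in WT CD23+ cells and 6.89% for the 12 at 1000 CPM or more. The score had limited the amount left in WT at every abundance, and more strictly for scarce members. This relation is therefore a description and not independent of the rule. Across members, Spearman's rho between the remaining level in WT and in cKO high was 0.86, a description over 200 features that share libraries within each genotype.

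Most members were low in plasma cells and not undetected. In every one of the 9 LLPC libraries 168 members had more than 3 counts, and 186 had no library at 0. The member ranked 84 was the scarcest in WT LLPC. It had 0 counts among 43124964 in the 6 WT LLPC libraries, which allows up to 0.0696 CPM (3 counts over the group, counting error only), and 3 counts in cKO high LLPC, against 11.9 ± 1.38 CPM in WT CD23+ cells (SD, n = 6). Its WT CD23+ level was 170.4 times that limit, which leaves out the spread between libraries. In cKO high LLPC the member ranked 96 was scarcer, with 1 count over the group. At the other end, the member ranked 86 was the most abundant by the lower of its B cell means. It was at 2724 ± 110.2 CPM in WT CD23+ cells and 3027 ± 386.3 in WT ABC (n = 4), and still at 220.9 ± 24.8 CPM in WT LLPC (n = 6) and 261.3 ± 28.9 in cKO high LLPC (n = 3). Its plasma cell level was thus above the median member's B cell level, although it fell by 2.38 on the log2 scale in cKO high (SE 0.150, edgeR adjusted p = 1.11e-09).

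The first rank belonged to MGP_BALBcJ_G0032033. In CD23+ cells it was at 1518 to 1962 CPM in WT (median 1805), at 1683, 1735 and 1467 in cKO low and at 1429, 1734 and 1846 in cKO high. In ABC it reached 2913, 3998, 2630 and 2040 CPM in WT and 3114, 2695 and 2993 in cKO high. In LLPC it was at 5.14 to 45.2 CPM in WT (median 15.1) and at 23.5, 33.2 and 15.7 in cKO high. Every LLPC library lay far below every other library, while the CD23+ groups overlapped one another and the ABC groups did too. In cKO high the log2 fold change was -5.17 for LLPC against CD23+ cells (SE 0.219, edgeR adjusted p = 3.83e-11) and -5.96 against ABC (SE 0.226, adjusted p = 2.75e-11).

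The second rank, MGP_BALBcJ_G0016906, also separated the ABC groups from each other. It was at 1036 to 1349 CPM in WT CD23+ cells (median 1134), at 1010, 1194 and 1241 in cKO low and at 999.86, 1018 and 1113 in cKO high. WT ABC held 703.3, 615.4, 587.5 and 767.5 CPM and cKO high ABC 231.0, 248.4 and 187.2. LLPC held 2.17 to 26.9 CPM in WT (median 3.08) and 2.30, 3.77 and 2.36 in cKO high. The ABC groups did not overlap, and the mean of cKO high was 33.2% of the WT mean, a log2 fold change of -1.59 (SE 0.135, edgeR adjusted p = 8.75e-05). In CD23+ cells the same comparison gave -0.11 (SE 0.103, edgeR adjusted p = 0.715), and the CD23+ groups overlapped. With all 28 libraries in 1 fit the ABC change kept its size, -1.59, but did not pass the test (edgeR adjusted p = 0.162). The difference of these effects, ABC minus CD23+, was -1.47 with an SE of 0.163 when only ABC and CD23+ libraries were fitted (edgeR adjusted p = 7.55e-05). In the fit of all 28 it was -1.46 with an SE of 0.616 (edgeR adjusted p = 0.911), so both calls depend on which libraries are fitted together. What in the larger fit ends them was not tested. Both fits of the difference were chosen after the values were seen. This member had the largest fall of all members in cKO high LLPC against CD23+ cells, -7.60 on the log2 scale (SE 0.188, edgeR adjusted p = 5.06e-14).

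**Figure D2:**
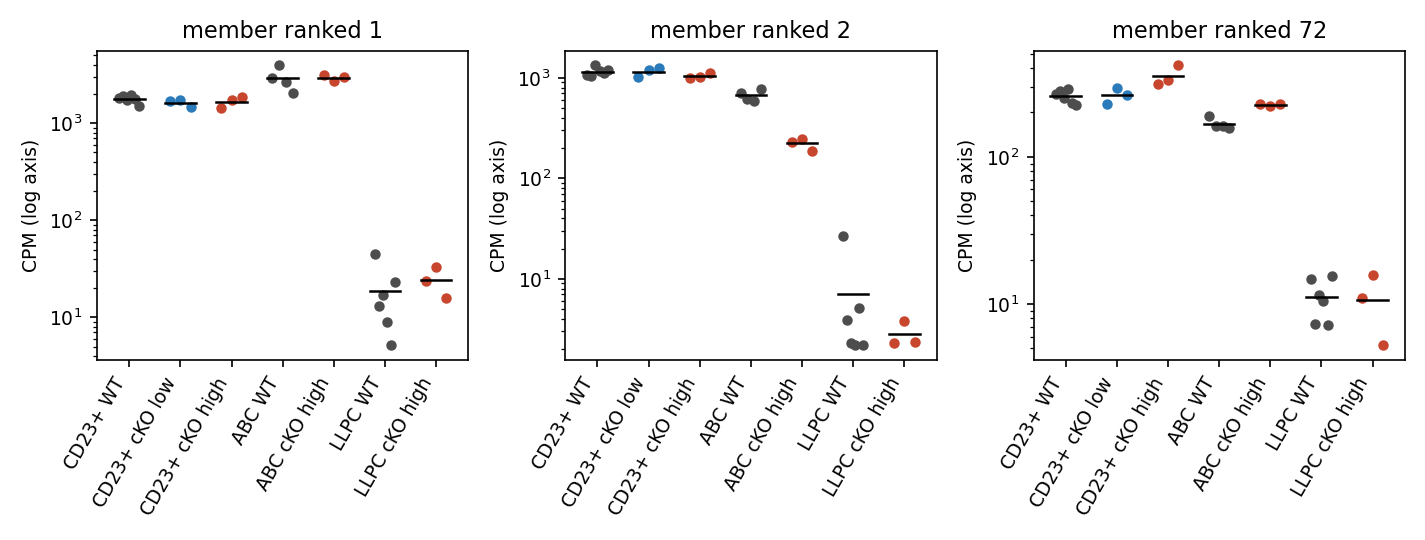
CPM on a log axis for the members ranked 1, 2 and 72, with 1 point per library and the group mean as a line. The member ranked 2 lies between 587.5 and 767.5 CPM in WT ABC and between 187.2 and 248.4 in cKO high ABC, and all 3 members are lowest in the LLPC libraries.

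Between the B cell subsets of cKO high animals the members leaned towards CD23+ cells. By edgeR's test 104 of 200 members differed (34.2% of all features), with 87 lower and 17 higher in ABC, where 15.2% and 19% of all features were called lower and higher. The median log2 difference was -0.36 for the members and 0.02 for all features. With all 28 libraries in 1 fit 65 members were called, 56 lower and 9 higher. Over all features that fit called 3447 of 14123, against 4225 of 12359 in the main fit. The ratio of ABC to CD23+ means had a median of 0.843 in WT, where the rule held it between 0.5 and 2, and of 0.793 in cKO high, where 20 members were under 0.5 and 2 above 2. The order of the members was alike, with a Spearman's rho of 0.85 between the WT and cKO high ratios across members. The largest difference was again that of the member ranked 2, at -2.27 (SE 0.131, edgeR adjusted p = 3.84e-09). In the other direction the member ranked 112 led, at 69.1 ± 17.9 CPM in CD23+ cKO high (SD, n = 3) and 173.3 ± 18.4 in ABC cKO high (n = 3), a log2 difference of 1.29 (SE 0.171, edgeR adjusted p = 5.74e-05).

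The members as a whole took a nearly constant share of CD23+ libraries. Their summed counts were 6.34 to 6.58% of the library in WT CD23+ cells (median 6.49%), 6.40, 6.34 and 6.21% in cKO low and 6.15, 6.28 and 6.34% in cKO high. In ABC the sum was 6.03, 6.77, 5.60 and 5.32% in WT and 5.85, 5.53 and 5.51% in cKO high. In LLPC it was 0.335 to 0.558% in WT (median 0.410%) and 0.453, 0.441 and 0.341% in cKO high. The CD23+ cKO low libraries overlapped the WT range, the highest CD23+ cKO high library just reached it, and the ABC and LLPC groups overlapped.

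**Figure D3:**
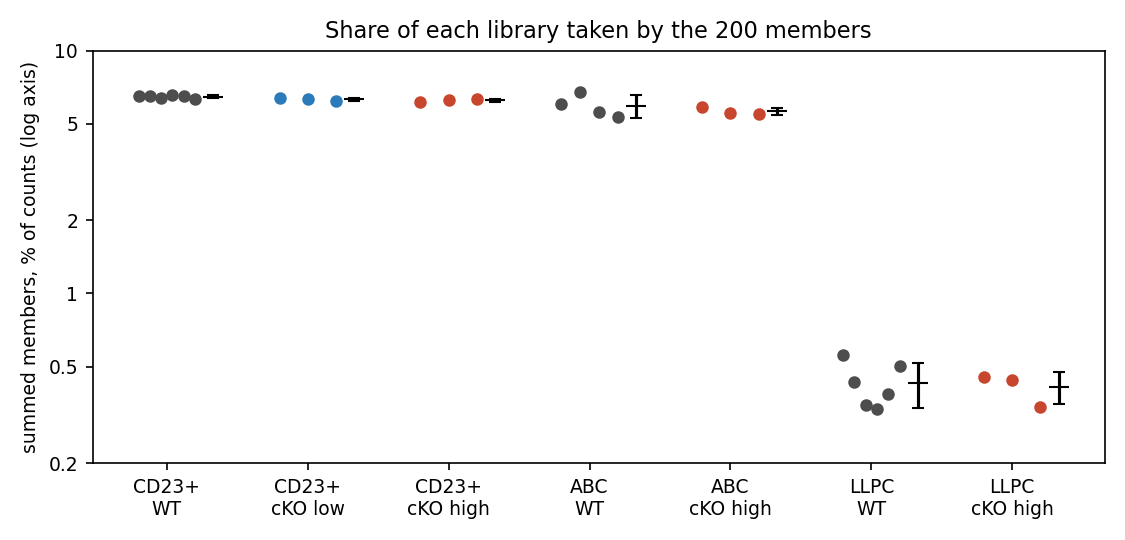
Share of each library's counts taken by the 200 members together, in percent on a log axis, with 1 point per library and the group mean ± SD beside it. All 9 LLPC libraries lie between 0.335 and 0.558%, and all 19 CD23+ and ABC libraries between 5.32 and 6.77%.

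In CD23+ cells the genotypes and disease labels were compared pairwise, and both comparisons with WT share the same WT libraries. Those WT means also entered the choice of members, so neither comparison with WT is independent of the rule. No member was called in cKO low against WT (edgeR, 0.0239% of 12542 features called), with 3 members and 2.38% of all features at an unadjusted p under 0.05, 0 calls by DESeq2 and 1 by limma. The median log2 fold change was -0.03 and the largest change in size 0.55. With the disease label, against WT, 1 member was called, lower, where 0.0478% of all features were lower and 0.478% changed in either direction, while 12.5% of members and 11.1% of all features had an unadjusted p under 0.05. That member, ranked 142 and named after its values were seen, was at 54.3 ± 7.09 CPM in WT (SD, n = 6), 51.7 ± 8.99 in cKO low (n = 3) and 34.8 ± 1.76 in cKO high (n = 3), a log2 change of -0.62 from WT (SE 0.128, edgeR adjusted p = 0.0372). The call ended without any 1 of CD23+ WT replicates 3 to 6 or cKO high replicates 1 to 3, each of which left 0 called members. Between cKO high and cKO low, which carry the same deletion, 0 members were called (edgeR, 0% of all features), with 10 members and 6.55% of all features at an unadjusted p under 0.05, 1 call by DESeq2 and 0 by limma.

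In ABC the deletion and the disease label went with changes in a minority of members, mostly falls. Of 200 members 12 passed the edgeR test in cKO high against WT, or 6.00%, against 1.13% of 12714 features. Of these, 11 were lower (0.590% of all features) and 1 higher (0.543% of all features), and the median log2 fold change over all members was -0.14, against -0.01 over all features. An unadjusted p under 0.05 was reached by 31.5% of members and 11.8% of all features. The WT ABC means also entered the choice of members, and a choice by a high WT level favours a lower level elsewhere, so these shares are not independent of the rule. The fall of the 11 ran from -1.59 to -0.60 on the log2 scale. The count of 12 also moved with the method, and so did the 144 calls over all features. The member count was 30 with DESeq2 (442 of 12714 features called) and 46 with no filter on low counts (629 of 21563). It was 2 both with all 28 libraries in 1 fit (94 of 14123) and with the replicate number as a block (69 of 12714). WT and cKO high share only a number in that block.

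After rank 2, the smallest adjusted p was that of the member ranked 180. It was at 227.2, 231.5, 239.0 and 246.3 CPM in WT ABC and at 162.8, 153.3 and 139.0 in cKO high, groups that did not overlap (log2 fold change -0.64, SE 0.0989, edgeR adjusted p = 0.00709). The member ranked 75 fell from 19.7 ± 4.71 CPM (SD, n = 4) to 7.28 ± 1.79 CPM (n = 3), by 1.45 on the log2 scale (SE 0.263, edgeR adjusted p = 0.0185). The member ranked 142, called in CD23+ cells as well, was at 35.5 ± 4.45 CPM in WT ABC and 17.3 ± 4.17 in cKO high, a log2 change of -0.999 (SE 0.180, edgeR adjusted p = 0.0178).

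The member that rose was MGP_BALBcJ_G0020453, ranked 72 and named after its values were seen. It was at 190.0, 161.0, 161.4 and 157.3 CPM in WT ABC and at 227.7, 221.2 and 230.0 in cKO high, groups that did not overlap (log2 fold change 0.44, SE 0.0919, edgeR adjusted p = 0.0356). In CD23+ cells it was at 226.5 to 289.9 CPM in WT (median 258.6), at 227.7, 294.5 and 261.4 in cKO low and at 313.1, 333.3 and 421.8 in cKO high. There too every cKO high library lay above every WT library, but the change of 0.49 did not pass the test (SE 0.110, edgeR adjusted p = 0.0553). In LLPC it was at 7.17 to 15.4 CPM in WT (median 11.05) and at 11.1, 15.8 and 5.23 in cKO high, groups that overlapped.

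The ABC count depended on single libraries, and so did the count over all features, 144 in the main fit. Leaving out WT replicate 1 gave 3 calls among members and 54 over all features, and leaving out WT replicate 2 gave 21 and 290. Without WT replicate 3 the counts were 11 and 169, and without WT replicate 4 they were 12 and 138. Leaving out a cKO high library gave 3, 3 and 5 calls for replicates 1, 2 and 3, of which replicate 2 was the shallowest in the series. Over all features these fits called 41, 67 and 70. The member ranked 2 was called in all 7 of the fits that each left out 1 library. The call of the member ranked 180 ended without cKO high replicate 3 (edgeR adjusted p = 0.0543). That of the member ranked 75 ended without WT replicate 1 or cKO high replicate 1 or 2 (edgeR adjusted p 0.0685 to 0.141), and that of the member ranked 142 without WT replicate 1 or cKO high replicate 2 or 3 (0.0819 to 0.0893). The member ranked 72 was called in 1 of the 7, the one without WT replicate 2, and otherwise had an edgeR adjusted p of 0.0629 to 0.193. The calls of all 4 also ended with the replicate number as a block (edgeR adjusted p = 0.0784, 0.0504, 0.0567 and 0.145 for the ranks 180, 75, 142 and 72) and with all 28 libraries in 1 fit (0.784, 0.149, 0.231 and 0.423). WT replicate 2 also stood apart in the members themselves: 130 of 200 had their highest WT ABC value there, and its median member was 1.25 times the mean of the other WT ABC libraries, against 1.05 for the other ranked features.

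**Figure D4:**
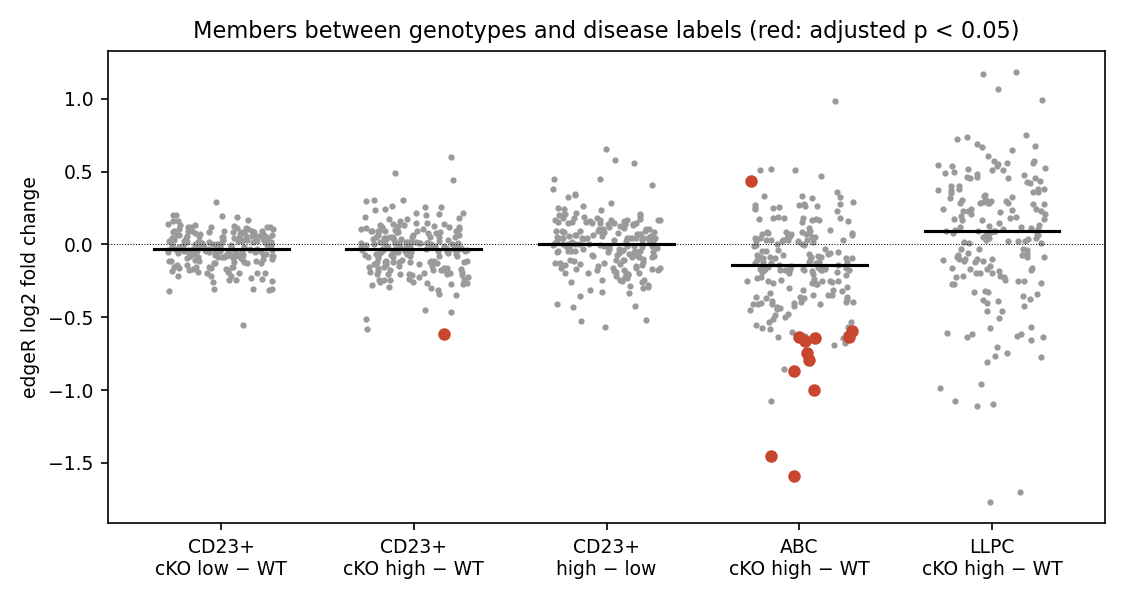
Log2 fold change of each member by edgeR in the 5 comparisons of genotype or disease label within a subset, with the median as a line and red points for members with an adjusted p under 0.05. Red points occur in ABC (11 lower, 1 higher) and in CD23+ cKO high against WT (1 lower), and the medians run from -0.14 in ABC to 0.09 in LLPC.

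In plasma cells no member was called between cKO high and WT. Of the 200, 182 passed the filter on low counts, so 18 members were not tested. Among those tested the edgeR count was 0 (0.00852% of 11739 features), 11 members and 4.60% of all features had an unadjusted p under 0.05, and DESeq2 and limma called 0. The median log2 fold change was 0.09, and single members ran from -1.77 to 1.18. The median was 0.0013 without cKO high replicate 2 and -0.0079 with the replicate number as a block, so it has no firm direction. WT plasma cell levels had chosen the members for being low, which favours a higher level in cKO high.

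Plasma cell libraries of one group differed in how much of the members they held, and many members moved together. The median member of WT replicate 1 was 1.45 times the mean of the other WT LLPC libraries, with quartiles of 1.22 and 1.81, and 178 of 200 members lay above that mean. The other ranked features had a median ratio of 1.07 in that library. In WT replicate 6 the median member was at 1.38 times and the other features at 1.41 times, and its top 10 features took 27.4% of counts, the lowest share in LLPC. In WT replicate 4 the members were at 0.659 and the other features at 0.803. Of the cKO high libraries, replicate 3 was the low one, at 0.682 for members and 0.901 for other features, with 132 of 200 members at their lowest there. Whether other B cells in the sort moved with these values was not tested, since no marker could be named.

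The spread of members was also wide in LLPC. The median coefficient of variation between WT libraries was 42.0% for members and 25.96% for the other ranked features, and in cKO high 31.6% and 13.1%. In WT CD23+ cells it was 10.5% and 9.82%. Members lie at a median of 10.3 CPM in WT LLPC, where counting noise is a larger part of a value than at B cell levels; its part in the spread was not tested. The member level in LLPC was 3.92 to 5.67% of the CD23+ level in 4 of 6 WT animals by the median member, and 7.72% and 7.55% in the animals of replicates 1 and 6.

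**Figure D5:**
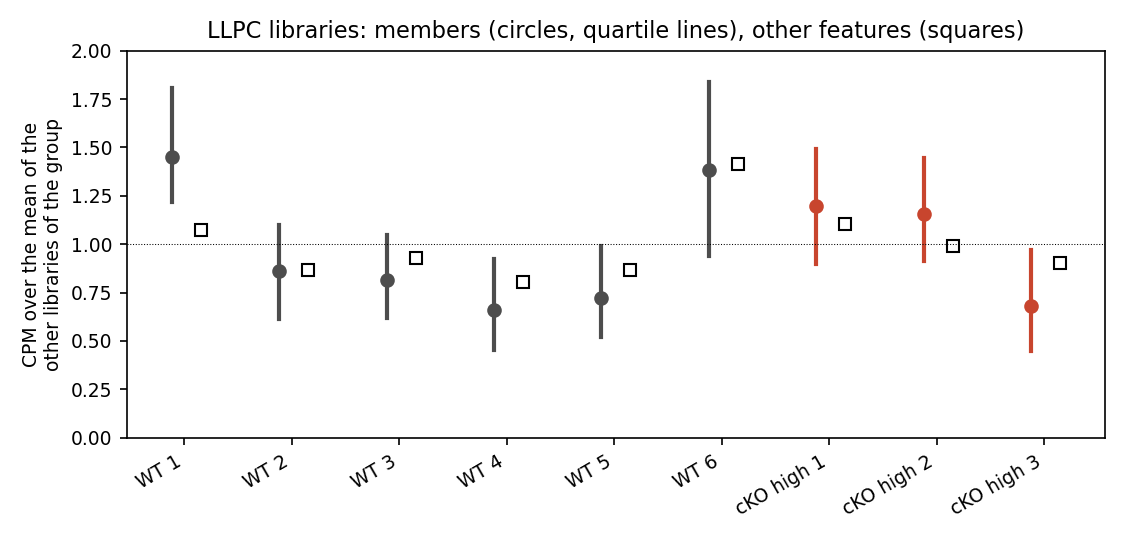
For each LLPC library, the CPM over the mean of the other libraries of its group: the median (circle) and quartiles (line) of the 200 members, and the median of the other ranked features (square). WT replicate 1 has the members at 1.45 and the other features at 1.07, while in WT replicate 6 both lie near 1.4.

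Some members carry consecutive ID numbers. There were 10 such runs, which held 26 members, and the longest had 5. The same count over all ranked features is not given here. Whether members lie together more often than other features was therefore not tested. One run of 2 joins the ranks 1 and 5, which reached 1783 ± 153.5 and 124.3 ± 18.8 CPM in WT CD23+ cells (SD, n = 6) and remained in cKO high LLPC at 1.45% and 0.433% of the CD23+ level. A run of 4 holds the ranks 6, 86, 45 and 60, of which 3 were above 1000 CPM in WT CD23+ cells and remained at 5.29 to 9.92%, while rank 6 was at 444.7 CPM and remained at 1.59%. The 5 features of the longest run were all scarcer in ABC than in CD23+ cells of WT mice, with ratios from 0.576 to 0.732. What neighbouring numbers mean in the annotation was not stated, and features that overlap can share reads.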

How the data were processed

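The deposited values are raw counts per feature, 1 table per library for 28 libraries. Per the labels' protocols, cells were sorted by FACS and libraries made with a SMARTer Pico kit from micro-column RNA. Per the submitters' processing notes, FastQC, STAR 2.7.1a and featureCounts were used. The build, annotation and strand setting were not given in the sources used here, so overlapping features and near-identical copies are uncertain. Library totals ran from 2133489 to 23866710 counts, and LLPC totals from 4651060 to 10599602. Replicates differed by more than sampling noise in all 48 pairs (chi-square per degree of freedom 3.73 to 205.5).

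The members and tests were chosen with earlier results of these data known. CPM used plain totals. R 4.3.3 and edgeR 4.0.16 were used with filterByExpr, TMM, robust dispersions, the two-sided quasi-likelihood test and Benjamini-Hochberg adjustment over all features tested, called at an adjusted p under 0.05. The 9 cKO high libraries were 1 fit, and each subset was 1 fit. Members named were the first by score, the most abundant, the called ones of smallest adjusted p, and others by rank. Alternatives were DESeq2 1.42.0, limma 3.58.1, other scalings, filters, blocks and left-out libraries. The scripts were tested on simulated data.

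Numbers in the names of the deposited tables recur across subsets and were read as animals. No label states this, so the pairing is an inference. In cKO high, libraries with the same replicate number carry the same animal number. Their deviations from the group mean correlated at 0.03 to 0.14, against medians of -0.05 to -0.03 for different animals. Such deviations cancel out within a group, so positive values for the same number bring negative ones for different numbers. Libraries of different animals that share only a replicate number gave -0.12 to 0.34 across the comparisons within a subset. These correlations therefore cannot decide the pairing. With the replicate block, 200, 200 and 103 members were called between the cKO high subsets, against 200, 200 and 104.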

Additional observations from a re-analysis of the deposited data

Results flagged for a closer look

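Of 21 comparisons of an extreme WT library with its group (7 measures in 3 subsets), 2 found one standing apart, where chance gives about 1 in 20. The member ranked 2 was at 26.9 CPM in LLPC WT replicate 1, against 2.17 to 5.14 CPM in the other 5, a library that also had the highest summed share of members, 0.558%. The member ranked 72 was at 189.95 CPM in ABC WT replicate 1, against 157.3 to 161.4 CPM in the other 3, which lies on the side of the higher cKO high group.

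The median member of the cKO high libraries lay on opposite sides of the WT mean in CD23+ cells and in ABC. In CD23+ cells it was at 186.6 ± 2.53 CPM in cKO high (SD, n = 3), each library above the WT mean of 183.9 ± 5.82 CPM (n = 6). In ABC it was at 145.2 ± 6.28 CPM in cKO high (n = 3), each library below the WT mean of 156.8 ± 14.4 CPM (n = 4). The groups overlapped in both subsets, and the difference was not tested. Other summaries of CD23+ cells lay on the lower side: the median member of the cKO high libraries was at 96.6, 95.6 and 96.4% of its own WT mean, 114 of 200 members had a negative log2 fold change (median -0.03), and the summed share was 6.26% against 6.47% in WT.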

How the results depend on the processing

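All 200 members stayed lower in cKO high LLPC than in CD23+ cells and in ABC under each of 17 alternatives. Members called in the main fits between genotypes or disease labels kept their direction in every alternative. Those called between ABC and CD23+ cells in cKO high were followed by their count only. Medians near 0 changed direction: that of LLPC cKO high against WT went from 0.09 to -0.0079 with the replicate block, and that of CD23+ cKO high against cKO low from 0.0032 to -0.025 without cKO low replicate 3. The count between ABC and CD23+ cells in cKO high was 104 and fell to 65 with all 28 libraries in 1 fit (76 to 125 without single libraries). The count over all features fell as well, from 4225 of 12359 to 3447 of 14123. The ABC count of 12 against WT became 30 with DESeq2, 46 with no filter, 2 with the replicate block and 2 with all libraries in 1 fit (3 to 21 without single libraries). Over all features the ABC count of 144 became 442, 629, 69 and 94 in the same order (41 to 290 without single libraries). For CD23+ cKO high against WT, the count of 1 became 3 with DESeq2, 2 with limma, 6 with no filter, 0 with the replicate block and 0 with all libraries in 1 fit (0 to 1 without single libraries). There the count over all features, 60, became 138, 131, 237, 44 and 10 in the same order. For CD23+ cKO low against WT, 0 became 1 with limma and 1 with no filter, and for cKO high against cKO low 1 with DESeq2 and 4 with no filter (0 to 1 without single libraries in each, the call arising without cKO low replicate 3). The cause was not tested. WT and cKO libraries come from different animals and share only a number, so no pairing is implied by that block. In LLPC the count was 0 throughout, also without both WT replicates 1 and 6, a choice made after seeing the data. The remaining level of 5.45% was 9.51% on TMM-scaled library sizes and 9.06% on totals without the 10 most abundant features, which differ by construction (5.11 to 6.03% without single libraries). Of the 200 members, 145 were kept with a ratio of 0.67 to 1.5, 171 with 5 CPM added, and 186 to 198 without single WT libraries. Depth limits the scarcest members in LLPC, where 14 had at least 1 library at 0.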
